A study of Mus musculus with 15 samples.

Results

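Atm loss was examined in primary mouse lung fibroblasts at passage 8, the later of the passages sampled in the series. The comparison took 6 of the 15 RNA libraries, chosen by the genotype and passage in their labels: 3 from Atm-/- cells (the mutant group) and 3 from Atm+/+ cells (the wild-type group). All 6 were untreated C57BL/6 cultures in medium with 15% serum at 3% oxygen. The 3 libraries of a group came from 3 separately established fibroblast strains, numbered as replicates 1 to 3, so the spread within a group includes differences between strains. The labels used here give neither the age nor the sex of the mice, nor the part of Atm that was removed. The other 9 libraries, both genotypes at passage 2 and Atm+/+ cells taken 10 days after 10 Gy of X-rays, entered the model for its estimate of the spread, and the passage 2 libraries also served in the comparison of the passages at the end.

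ATM is a protein kinase that senses DNA double-strand breaks, phosphorylates p53 and checkpoint proteins, and also responds to oxidative stress. Fibroblasts make and anchor the interstitial matrix of the lung, and serial passage brings them toward senescence, a lasting arrest enforced by inhibitors of cyclin-dependent kinases. Interferon-stimulated genes are switched on through the receptors for type I interferon and factors that include STAT2 and IRF9, and cells with DNA in the cytosol can start this program through nucleic acid sensors.

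Values below are CPM (counts scaled to library size, normalised by the TMM method), given in the order of replicates 1, 2 and 3, and a gene is said to rise or fall in mutant cells where its edgeR adjusted p is at most 0.05. Library totals were 30336228 to 37149602 counts in the wild-type group and 34015366, 31044955 and 13645592 in the mutant group. Mutant replicate 3 stood apart from the other 5 libraries. At equal depth it held 15037 detected genes against 20101 to 20694, its mitochondrial share was 0.565% against 1.41% to 1.62%, and 1.59% of its counts lay in ribosomal RNA genes against 0.0864% to 0.244%. It was also the only one of the 6 with counts of the X-inactivation transcript Xist above 0.1 CPM (162.5 CPM), and the Y-linked Ddx3y, Eif2s3y, Kdm5d and Uty had 0 counts there and counts in the other 5, so its cells differed from the rest in sex-linked RNA. The same mutant strain at passage 2, a library with 21337 genes at equal depth, also had Xist (139.5 CPM) and 0 counts of Ddx3y, Kdm5d and Uty, so both libraries of that strain differed from the other strains in this way. Most counts of list members below are therefore also given without mutant replicate 3. Atm itself had 1.52, 1.42 and 2 CPM in wild-type and 0.873, 1.09 and 2.37 CPM in mutant cells, with a log2 fold change of -0.24 (edgeR adjusted p = 0.788). The labels do not say which exons were deleted, so this gene-level value is no test of the genotype.

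Of 18167 genes tested, 913 rose in mutant cells (5.03%) and 780 fell (4.29%), 9.32% together. At least 2-fold changes made up 476 of the rises and 450 of the falls. Without mutant replicate 3, 973 rose (5.22%) and 828 fell (4.44%) of 18632 tested (9.67% together), and 1256 of the 1693 calls were made in both fits, all in the same direction. The wild-type libraries weighed on the number of calls. It was 671, 732 and 588 without wild-type replicate 1, 2 or 3 and 1325, 3300 and 1801 without mutant replicate 1, 2 or 3. Rises numbered 297, 347 and 263 and falls 374, 385 and 325 without wild-type replicate 1, 2 or 3. Without mutant replicate 1 or 2, there were 859 and 1884 rises and 466 and 1416 falls. With every one of the 6 left out in turn, 233 genes rose in all 6 fits (1.28%) and 297 fell (1.63%). A fit of these 6 libraries alone called 18 genes, 14 higher and 4 lower. They included Apol9a, Apol9b, Elobl, Xaf1, Oas2, Usp18, Oas1a, Crct1, Ifit3, Prl3a1, Uchl1 and 3 genes with predicted or clone-based names above, and Col1a2, Plau and Galnt17 below. On the log2(TPM + 1) scale (TPM is a count scaled by transcript length and depth) the split was 367 higher against 1003 lower, with the median of all genes at -0.29, where it was -0.08 in the count fit. The 3 mutant CPM values lay above all 3 wild-type values for 3061 of the 18167 genes and below them for 4177. The shares of all genes, 5.03% that rose and 4.29% that fell, are the background for the member counts of the lists below.

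The 3 mutant strains had moved to different extents. Over the 913 genes that rose, the median distance from the wild-type mean was 0.86, 0.61 and 1.28 on the log2 scale in mutant replicates 1, 2 and 3, and over the 780 that fell it was -1.15, -0.71 and -1.24. Replicate 2 was the mutant library nearest to wild type for 663 of the genes that rose (72.6%) and for 607 of those that fell (77.8%). The same medians lay between -0.06 and 0.05 in the wild-type libraries. Pairs of wild-type libraries had correlations of 0.990 to 0.994 in log2 CPM over 11911 genes, mutant replicates 1 and 2 had 0.979, and mutant replicate 3 had 0.811 to 0.883 with the other 5. The genes were chosen by the same values, so these medians describe the calls and test nothing.

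**Figure D1:**
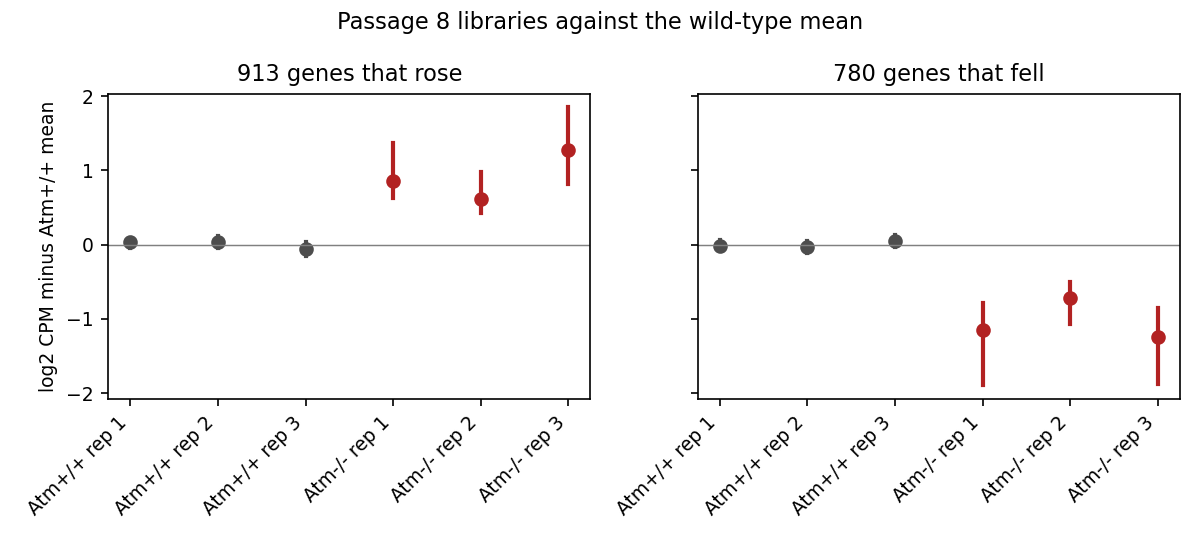
Distance of each passage 8 library from the wild-type mean, in log2 CPM, over the 913 genes that rose (left) and the 780 that fell (right). Points are medians and bars run from the lower to the upper quartile over genes. Mutant replicate 2 lies nearest to the wild-type libraries in both panels, with medians of 0.61 and -0.71.

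The largest rises were in Plac9b and Plac9a, near-identical copies whose reads cannot be assigned with certainty and which encode small secreted proteins. Plac9b had 2.44, 3.77 and 2.47 CPM in wild-type and 112, 30.6 and 412 CPM in mutant cells (log2 fold change 6.00, SE 1.01, edgeR adjusted p = 0.0038). Crct1, a gene of the epidermal differentiation region, had 4.45, 2.92 and 3.9 CPM in wild-type and 128, 44.5 and 90.0 CPM in mutant cells (log2 fold change 4.54, SE 0.59, edgeR adjusted p = 0.000944). The rule for naming took only genes without overlap, so the separation of the groups is no result of its own. Mutant replicate 2 was the lowest of the mutant libraries for both genes. S100a4, a calcium-binding protein linked to cell motility, had 30.8, 39.6 and 24.3 CPM in wild-type and 265, 129.7 and 498 CPM in mutant cells (log2 fold change 3.24, SE 0.63, edgeR adjusted p = 0.00726). Msln, which encodes the mesothelial surface protein mesothelin, had 2.07, 1.12 and 2.33 CPM in wild-type and 40.8, 6.68 and 18.9 CPM in mutant cells (log2 fold change 3.58, SE 0.72, edgeR adjusted p = 0.00859). The water channel Aqp5 (4.25), the complement-related secreted factor C1qtnf3 (4.08), the melanocyte antigen Mlana (3.33), the histone gene Hist1h4h (3.18), the prolactin family member Prl3a1 (3.09) and Elobl (3.26) also stood among the 15 largest log2 fold changes. The remaining 4 belonged to the interferon program (Oas2, Oas1g, Apol9a and Apol9b, described below). C1qtnf3 lost its call without wild-type replicate 2 or 3 or mutant replicate 1, where its edgeR adjusted p was 0.0581, 0.0725 and 0.0544 (range over all alternatives 5.92e-06 to 0.103).

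The largest fall among those that met the rule for naming was in Gdpd2. This gene, which encodes a membrane glycerophosphodiesterase, had 52.6, 48.2 and 48.4 CPM in wild-type and 0.553, 6.42 and 1.75 CPM in mutant cells (log2 fold change -4.06, SE 0.66, edgeR adjusted p = 0.00318). Sparcl1, a matricellular relative of SPARC, had 586, 689.7 and 752 CPM in wild-type and 14.5, 97.6 and 45.6 CPM in mutant cells (log2 fold change -3.68, SE 0.53, edgeR adjusted p = 0.00172). Nid2, which encodes the basement membrane linker nidogen 2, had 1100.4, 893 and 1487 CPM in wild-type and 38.4, 235 and 47.6 CPM in mutant cells (log2 fold change -3.43, SE 0.69, edgeR adjusted p = 0.00892). Mutant replicate 2 kept the highest mutant level of each. That it stayed below the lowest wild-type library follows from the rule for naming, which took only genes without overlap. Gdf10, a ligand of the TGF-beta family, had 543, 569.6 and 512 CPM in wild-type and 47.4, 121 and 30.9 CPM in mutant cells (log2 fold change -3.02, SE 0.47, edgeR adjusted p = 0.00252). Lpl, the lipoprotein lipase, had 372, 360.0 and 296 CPM in wild-type and 14.6, 43.6 and 60.1 CPM in mutant cells (log2 fold change -3.13, SE 0.53, edgeR adjusted p = 0.00376). The BMP antagonist Chrdl2 (-3.43), the protease-like Prss35 (-3.39), the matrix protein Abi3bp (-3.28), the Cdc42 effector Cdc42ep3 (-3.24) and the amine oxidase Aoc3 (-3.19) were also among the 15 largest falls. So were the protease Adamts15 (-3.19), its relative Adamtsl1 (-3.17), the chondroitin sulphate enzyme Csgalnact1 (-3.15), the proprotein convertase Pcsk5 (-3.09) and Wfdc17 (-3.60). Adamtsl1 did not pass without wild-type replicate 3 (edgeR adjusted p = 0.0547, range over all alternatives 2.51e-05 to 0.181).

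Interferon-stimulated genes were higher as a group in mutant cells while the receptors that feed them were not. Of 65 tested genes for interferon-induced effector proteins, 30 rose (46.2%, against 5.03% of all genes), 0 fell and the median log2 fold change was 1.00, against -0.08 for all genes. Without mutant replicate 3, 37 rose. The count was 19 without wild-type replicate 1 or 2 and 20 without wild-type replicate 3, and 18 members passed with each of the 6 libraries left out. On the log2(TPM + 1) scale 16 passed. In the fit of the 6 passage 8 libraries alone, Oas1a, Oas2, Ifit3, Usp18 and Xaf1 were the only members that passed.

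The 2'-5'-oligoadenylate synthetases, which activate RNase L on double-stranded RNA, had the largest rises among the effectors. Oas2 had 2.3, 1.22 and 2.8 CPM in wild-type and 31.2, 46.3 and 38.1 CPM in mutant cells (log2 fold change 4.19, SE 0.44, edgeR adjusted p = 0.000234). Oas1a had 7.12, 3.77 and 5.19 CPM in wild-type and 34.9, 41.9 and 44.2 CPM in mutant cells (log2 fold change 2.91, SE 0.25, edgeR adjusted p = 0.000112), and its near-identical neighbour Oas1g, with which reads can be shared, had a log2 fold change of 3.71. No mutant library came within a 4-fold distance of the wild-type libraries for Oas2 or Oas1a. Ifit3, which binds viral RNA and has the close copy Ifit3b, had 54.9, 46.3 and 81.2 CPM in wild-type and 329, 462 and 433 CPM in mutant cells (log2 fold change 2.75, SE 0.28, edgeR adjusted p = 0.000234). Usp18, the protease that strips ISG15 from proteins and dampens the interferon receptor, had 11.9, 9.33 and 15.5 CPM in wild-type and 68.7, 85.7 and 61.8 CPM in mutant cells (log2 fold change 2.56, SE 0.26, edgeR adjusted p = 0.000234). Xaf1, an interferon-induced partner of apoptosis inhibitors, had 25.3, 21.7 and 24.3 CPM in wild-type and 74.3, 87.9 and 72.7 CPM in mutant cells (log2 fold change 1.72, SE 0.15, edgeR adjusted p = 0.000112). Isg15, the ubiquitin-like modifier, had 105, 67.2 and 103 CPM in wild-type and 208, 360.4 and 271 CPM in mutant cells (log2 fold change 1.61, SE 0.23, edgeR adjusted p = 0.00155). The groups did not overlap for any of these genes, as for 3061 of all 18167 genes with mutant values above. Mutant replicate 2, the library nearest to wild type over all changed genes, was the highest mutant library for Oas2, Ifit3, Usp18, Xaf1 and Isg15. For Oas1a mutant replicate 3 was the highest. Apol9a and Apol9b, near-identical apolipoprotein L genes that interferon induces and whose reads cannot be told apart with certainty, had log2 fold changes of 3.52 and 3.37.

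Promoters of the effectors that rose are shown to make the interferon response element visible. RefSeq windows on GRCm38.p6 (250 bases before to 50 after the annotated start, 5′ to 3′ on the gene's strand) were searched for the interferon-stimulated response element, taken as GAAA, any 2 bases and GAAA again, on either strand, and overlapping matches are in capitals.
Isg15: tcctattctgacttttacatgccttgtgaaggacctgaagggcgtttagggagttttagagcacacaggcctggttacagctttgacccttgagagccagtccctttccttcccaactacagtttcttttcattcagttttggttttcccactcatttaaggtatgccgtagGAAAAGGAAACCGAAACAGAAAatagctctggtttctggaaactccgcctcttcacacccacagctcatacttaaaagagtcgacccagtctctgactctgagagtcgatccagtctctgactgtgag
Ifit1: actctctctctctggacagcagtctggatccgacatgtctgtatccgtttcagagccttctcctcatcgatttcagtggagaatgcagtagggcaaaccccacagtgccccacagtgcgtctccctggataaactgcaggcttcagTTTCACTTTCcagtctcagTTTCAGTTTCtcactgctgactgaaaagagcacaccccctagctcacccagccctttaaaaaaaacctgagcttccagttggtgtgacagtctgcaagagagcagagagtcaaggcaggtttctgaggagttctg
Ifit3: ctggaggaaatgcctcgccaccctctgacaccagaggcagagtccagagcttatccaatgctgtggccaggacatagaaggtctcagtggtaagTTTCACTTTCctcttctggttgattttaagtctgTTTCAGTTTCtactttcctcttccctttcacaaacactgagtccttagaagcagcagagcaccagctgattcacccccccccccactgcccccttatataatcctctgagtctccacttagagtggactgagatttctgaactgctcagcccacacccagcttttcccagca
Bst2: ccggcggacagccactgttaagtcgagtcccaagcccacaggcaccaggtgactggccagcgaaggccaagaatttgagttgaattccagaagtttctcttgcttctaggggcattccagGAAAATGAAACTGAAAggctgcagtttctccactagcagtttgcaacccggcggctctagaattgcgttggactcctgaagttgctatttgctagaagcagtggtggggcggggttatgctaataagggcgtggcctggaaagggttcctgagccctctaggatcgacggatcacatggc
The windows lie at chr4:156200769-156201068 (minus strand), chr19:34640639-34640938 (plus strand), chr19:34583279-34583578 (plus strand) and chr8:71537423-71537722 (minus strand). Their matches start between -78 and -66 from the start site in Isg15, at -104 and -85 in Ifit1, at -156 and -122 in Ifit3 and between -130 and -124 in Bst2. In Ifit1 and Ifit3 the letters read TTTC on the strand shown, the reverse complement. Bst2 encodes tetherin, which holds budding virus at the cell surface, and had a log2 fold change of 2.32, and Ifit1 had 2.16. The letters occurred in 28 of 51 effector genes with a window (54.9%) and in 3.99% of 27025 genes in the promoter table. Among effectors with a window, 12 of 24 that rose and 16 of 27 that did not pass held them, so the letters did not separate the effectors that rose. A match is a description of the sequence and was not tested as a site.

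Some transcription factors of the pathway rose, and several receptor and kinase genes fell. Stat2 had a log2 fold change of 1.46 (edgeR adjusted p = 0.00042). Irf7, the inducible factor that amplifies interferon transcription, had 41.6, 27.7 and 43.1 CPM in wild-type and 115, 204 and 157 CPM in mutant cells (log2 fold change 2.08, SE 0.26, edgeR adjusted p = 0.000632). Irf9, the partner of STAT2, had a log2 fold change of 0.88 (edgeR adjusted p = 0.00264) and did not pass on either TPM scale. Jak2, the kinase of the interferon-gamma and cytokine receptors, had 67.9, 70.1 and 82.2 CPM in wild-type and 29.4, 38.0 and 19.8 CPM in mutant cells (log2 fold change -1.33, SE 0.19, edgeR adjusted p = 0.00166). Ifnar1, a chain of the type I interferon receptor, had 98.4, 94.4 and 93.7 CPM in wild-type and 54.5, 73.6 and 48.1 CPM in mutant cells (log2 fold change -0.70, SE 0.15, edgeR adjusted p = 0.0107). The other chain, Ifnar2 (-1.23), and Stat3 (-0.64) fell as well, and Irf5 (-1.47) passed at an edgeR adjusted p of 0.0403. Ifnar2 and Stat3 lost their calls without any 1 wild-type library or mutant replicate 1, with edgeR adjusted p of 0.0558, 0.0524, 0.0685 and 0.0568 for Ifnar2 (range over all alternatives 0.0001 to 0.164) and 0.0598, 0.0543, 0.0726 and 0.054 for Stat3 (range 0.000177 to 0.178). Irf5 passed without mutant replicate 2 but not without any other of the 6 libraries (edgeR adjusted p = 0.109, 0.0765, 0.135, 0.103 and 0.0522, range 0.000453 to 0.252). Of the 22 tested genes of this list, 4 rose and 5 fell with and without mutant replicate 3, and 10 fell without mutant replicate 2.

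The other 13 tested genes of this list did not pass. They were Irf1 (-0.04), Irf2 (-0.45), Irf3 (0.09), Irf8 (-1.61), Jak1 (-0.21), Tyk2 (0.00), Ifngr1 (-0.48), Ifngr2 (-0.37), Ifnlr1 (-1.55), Il10rb (-0.77), Pias1 (-0.11) and the inhibitors Socs1 (-0.39) and Socs3 (-0.53). Interferon ligand RNA was at or near the detection limit. Ifnb1 had 0.0291 and 0.0642 CPM in mutant replicates 1 and 2 and 0 in the other 4 libraries, Ifna4 and Ifng had 0 in all 6, and Ifne had 0.0678 and 0.0275 CPM in wild-type replicates 2 and 3 and 0 elsewhere. At this depth a difference in ligand RNA was not detectable.

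Of 21 tested cytosolic nucleic acid sensors, 4 rose and none fell (median 0.58, 8 rose without mutant replicate 3 and 1 or 2 without any 1 wild-type library). Zbp1, which binds left-handed nucleic acid, had 45.3, 37.5 and 45.8 CPM in wild-type and 102, 189.7 and 111 CPM in mutant cells (log2 fold change 1.65, SE 0.24, edgeR adjusted p = 0.00179), and it alone of the 4 passed with each of the 6 libraries left out. The RNA helicases Ddx58 (0.80) and Dhx58 (1.24) and the DNA-binding Ifi203 (1.11) passed in the full fit. Ddx58 did not pass without wild-type replicate 1 or 2 (edgeR adjusted p = 0.051 and 0.0653, range over all alternatives 0.000157 to 0.3), Dhx58 without wild-type replicate 2 or 3 (0.0644 and 0.0523, range 0.000486 to 0.0947) and Ifi203 without any of the 3 (0.0669, 0.0753 and 0.0792, range 0.000607 to 0.176). Of 23 genes of class I antigen presentation, 7 rose and none fell (median 0.54, 8 without mutant replicate 3). B2m, the shared light chain of class I molecules, had 681, 753 and 660.0 CPM in wild-type and 1619, 1544 and 1031 CPM in mutant cells (log2 fold change 1.00, SE 0.16, edgeR adjusted p = 0.00318), and it did not pass on either TPM scale. B2m alone of these 7 passed with each library left out, and the count was 1 without wild-type replicate 2 or 3, 3 without wild-type replicate 1 and 11 without mutant replicate 1.

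**Figure D2:**
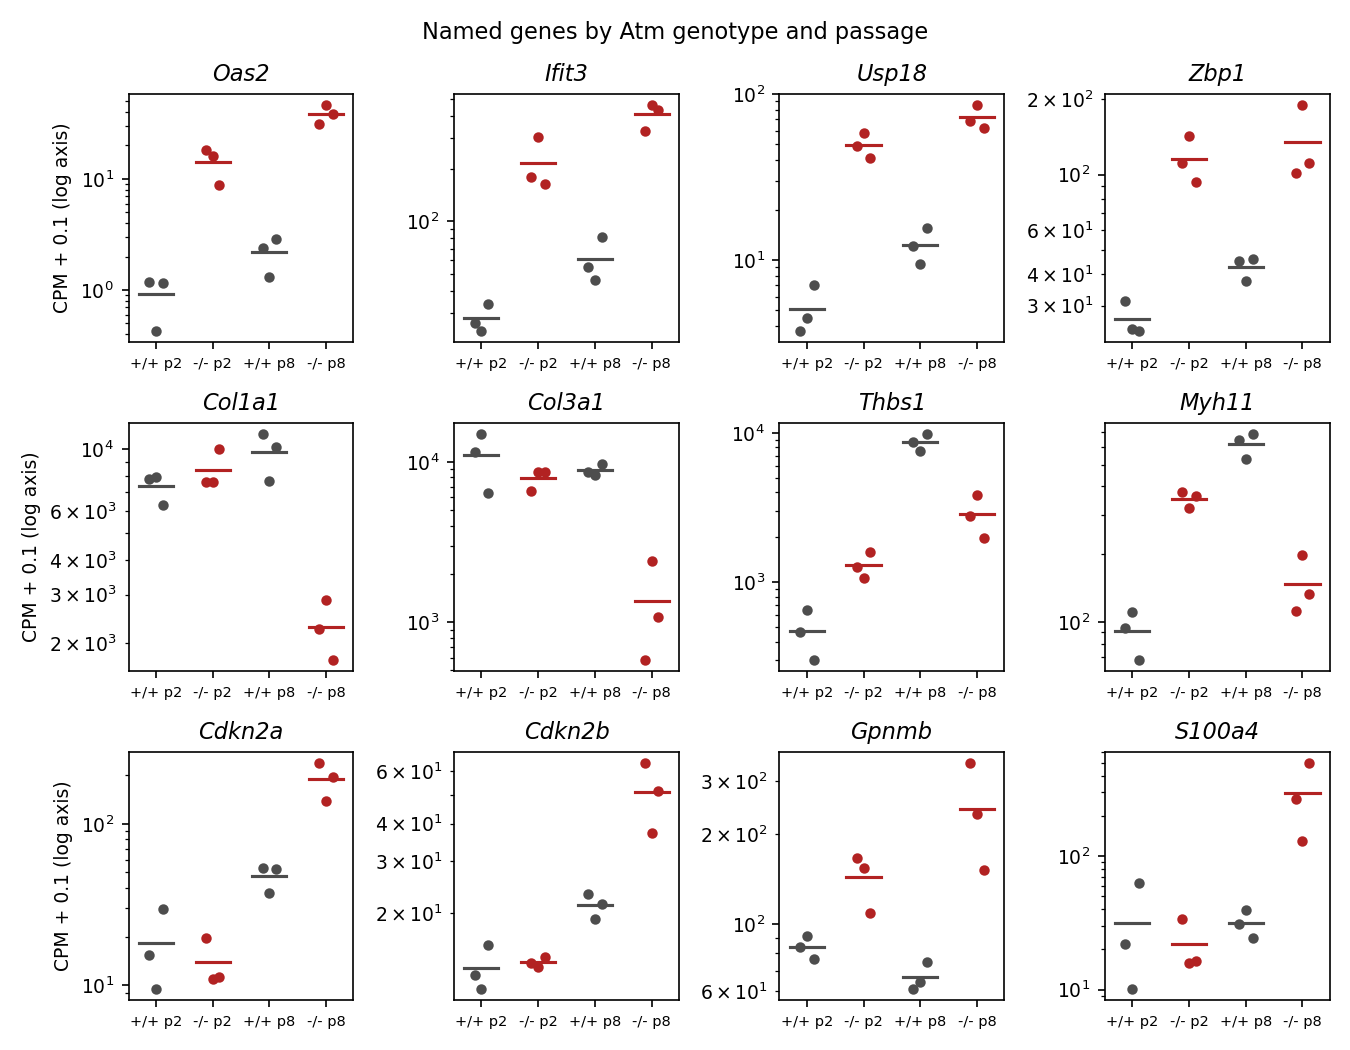
Level of 12 named genes in each library, as CPM + 0.1 on a log axis, for both genotypes at passage 2 and passage 8. Each point is 1 library and the bar is the group mean. Interferon genes (Oas2, Ifit3, Usp18) are higher in mutant cells at both passages, whereas Col1a1, Myh11 and Thbs1 are lower at passage 8.

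Fibrillar and basement membrane collagens were lower in mutant cells. Of 34 tested collagen genes, 16 fell (47.1%, against 4.29% of all genes), none rose and the median log2 fold change was -0.84. Without mutant replicate 3, 15 fell and 1 rose, and 12 fell with each of the 6 libraries left out in turn. In the fit of the 6 passage 8 libraries alone, only Col1a2 fell. The genes of type I collagen, the main fibril of the lung interstitium, led the list. Col1a1 had 11370.0, 7658 and 10199 CPM in wild-type and 2246, 2862 and 1745 CPM in mutant cells (log2 fold change -2.09, SE 0.22, edgeR adjusted p = 0.000234). Col1a2 had 10915, 8710.0 and 10132 CPM in wild-type and 2405, 3106 and 2291 CPM in mutant cells (log2 fold change -1.93, SE 0.17, edgeR adjusted p = 0.000112). Col3a1, the fibrillar partner of type I, had 8647, 8269 and 9672 CPM in wild-type and 582, 2405 and 1083 CPM in mutant cells (log2 fold change -2.71, SE 0.42, edgeR adjusted p = 0.00271). Every mutant library was below every wild-type library for these genes, as for 4177 of all 18167 genes. The mutant libraries were more alike for Col1a2 than for Col3a1, where replicate 2 had over 2 times the level of the others. The basement membrane chains Col4a1 (-1.82) and Col4a2 (-1.51) and the microfibrillar Col6a1 (-1.86) and Col6a2 (-1.76) fell together with them.

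Of 28 tested genes that fold, cut and cross-link collagen, 7 fell, none rose and the median was -0.21 (8 fell and 1 rose without mutant replicate 3, 10 fell without mutant replicate 2, and 4 fell without wild-type replicate 1 or 2). Serpinh1, the collagen chaperone HSP47, had 2904, 2479.7 and 2742 CPM in wild-type and 1385, 1767 and 1169 CPM in mutant cells (log2 fold change -0.91, SE 0.15, edgeR adjusted p = 0.00324). Bmp1, which trims procollagen (-0.91), the cross-linking oxidase Loxl2 (-0.78) and the prolyl hydroxylase subunit P4ha2 (-0.64) fell in every one of those 6 fits as well. Among 45 tested genes for elastic fibres, basement membrane and proteoglycans, 18 fell, 2 rose and the median was -0.64, with 14 falls without mutant replicate 3 and 11 without any 1 wild-type library or mutant replicate 1. Fn1, fibronectin, had 7156, 7253 and 8064 CPM in wild-type and 2748, 3977 and 2424 CPM in mutant cells (log2 fold change -1.30, SE 0.21, edgeR adjusted p = 0.00338). The laminin chain Lamb1 (-1.11), fibrillin 1 (Fbn1, -0.92), fibulin 1 (Fbln1, -1.82), Mfap4 (-1.91) and nephronectin (Npnt, -2.57) fell with fibronectin. Of 18 integrin subunits, 6 fell and 1 rose (5 and 1 without mutant replicate 3, and 3 falls without any 1 wild-type library). Itga11, the fibroblast receptor for fibrillar collagen, had 125, 91.5 and 106 CPM in wild-type and 8.64, 23.3 and 10.3 CPM in mutant cells (log2 fold change -2.92, SE 0.31, edgeR adjusted p = 0.000234). The fibronectin receptor chain Itga5 (-1.08) and the nephronectin receptor chain Itga8 (-1.47) fell with it.

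**Figure D3:**
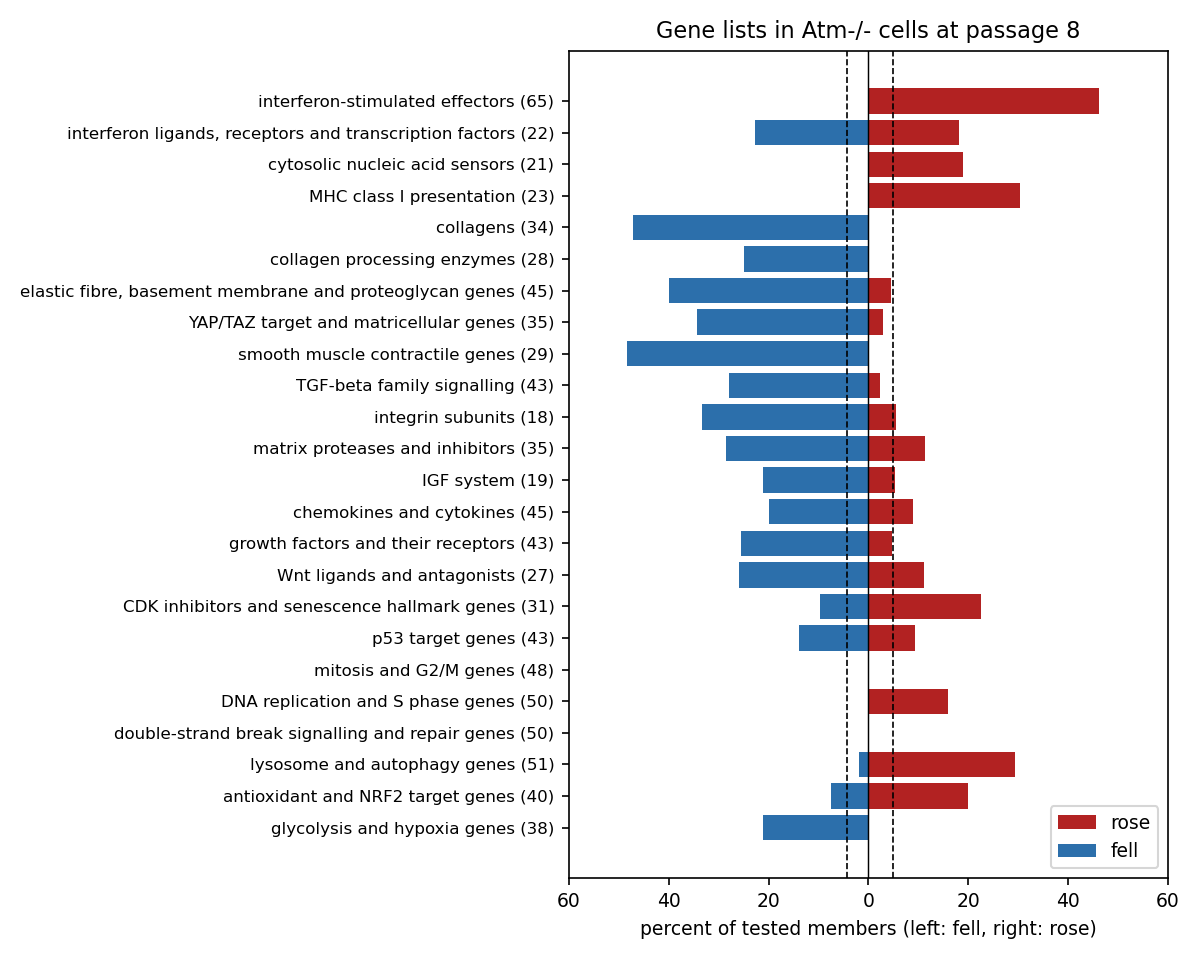
Share of the tested members of 24 gene lists that rose (right) or fell (left) in mutant cells at passage 8, with the number tested in brackets. Dashed lines mark the shares over all 18167 genes, 5.03% and 4.29%. The interferon-stimulated effectors reach 46.2% on the right and the collagens 47.1% on the left.

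Of 43 tested genes of the TGF-beta family, 12 fell (27.9%, against 4.29% of all genes), 1 rose and the median was -0.50. Without mutant replicate 3, 9 fell and 1 rose. Without any 1 wild-type library or mutant replicate 1, 7 or 8 fell and 0 rose. Tgfb3 had 341, 297 and 363 CPM in wild-type and 139, 219 and 154 CPM in mutant cells (log2 fold change -0.97, SE 0.17, edgeR adjusted p = 0.00488), whereas Tgfb1 (-0.18, edgeR adjusted p = 0.415) and Tgfb2 (-0.26, 0.686) did not pass. The receptors Tgfbr1 (-0.60), Tgfbr2 (-0.57), Tgfbr3 (-0.50), Eng (-0.22), Acvrl1 (0.30), Acvr1 (-0.91), Acvr2a (-0.20), Acvr2b (0.04), Bmpr1b (0.17) and Bmpr2 (-0.09) did not pass either. The BMP receptor chain Bmpr1a (-0.97) and the ligand Bmp4 (-1.01) fell. Bmpr1a lost its call without any 1 wild-type library or mutant replicate 1 or 3, and Bmp4 without wild-type replicate 2 or 3 or mutant replicate 1, with edgeR adjusted p of up to 0.167 and 0.184 over all alternatives. The ligands Bmp2 (1.72), Bmp5 (-1.24), Bmp6 (0.69), Inhba (-0.01), Inhbb (0.24), Gdf6 (-0.05) and Gdf15 (-0.82) did not pass, and Bmp7 had 0 counts in all 6 libraries. The latent TGF-beta binding proteins Ltbp2 (-0.77), Ltbp3 (-0.69) and Ltbp4 (-1.01) fell in the full fit and with each of the 6 libraries left out, as did Tgfb3 and Gdf10.

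Smooth muscle contractile genes, which mark myofibroblasts, were also lower. Of 29 tested, 14 fell (48.3%, against 4.29% of all genes), none rose and the median was -0.70. Without mutant replicate 3, 18 fell, and 9 did without wild-type replicate 1 or 3 and in all 6 fits. None passed in the fit of the 6 passage 8 libraries alone. Myh11, the smooth muscle myosin heavy chain, had 642, 527 and 684 CPM in wild-type and 112, 199 and 132 CPM in mutant cells (log2 fold change -2.06, SE 0.23, edgeR adjusted p = 0.000306). Lmod1, an actin nucleator of smooth muscle, had 254, 208 and 259 CPM in wild-type and 69.5, 122 and 97.0 CPM in mutant cells (log2 fold change -1.32, SE 0.20, edgeR adjusted p = 0.00189). Acta2, the actin that defines myofibroblasts, had 7939.9, 7798 and 7682 CPM in wild-type and 4255, 5019.7 and 4922 CPM in mutant cells (log2 fold change -0.72, SE 0.15, edgeR adjusted p = 0.0117). The distance between the groups was smaller for Acta2 than for Myh11. Neither overlapped, as for 4177 of all 18167 genes with mutant values below. The calponin-related Tagln (-0.91), the myosin kinase Mylk (-1.76), smoothelin (Smtn, -0.97) and nexilin (Nexn, -0.98) fell as well. The CArG box that serum response factor binds was searched in the promoter windows as CC, 6 of A or T and GG. Boxes with a mismatch to these letters were not counted. The letters stood in windows of 5 of 24 contractile genes (20.8%), against 1.81% of all genes in the table. These were Myl9 and Srf, which fell, and Cnn2, Vcl and Ldb3, which did not pass. The calls of Myl9 and Srf were lost without wild-type replicate 1 or 3, and for Myl9 also without wild-type replicate 2 or mutant replicate 1. Among contractile genes with a window, 2 of 10 that fell and 3 of 14 that did not pass held the letters, so they did not separate the members that fell. The letters were present in 3.73% of the 563 genes that fell and had a window.

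Of 35 targets of YAP and TAZ and matricellular genes, 12 fell (34.3%, against 4.29% of all genes) and 1 rose (median -0.46, 11 and 3 without mutant replicate 3). The list had 3 falls without wild-type replicate 3, 6 without wild-type replicate 1, 7 without mutant replicate 1 and 8 without wild-type replicate 2. Over all genes, falls were also fewest without wild-type replicate 3 (325, against 780 in the full fit). Thbs1, thrombospondin 1, had 8702, 7516 and 9855 CPM in wild-type and 2788, 3852 and 1988 CPM in mutant cells (log2 fold change -1.60, SE 0.29, edgeR adjusted p = 0.00516). Sparc, which was among the 10 genes with the highest wild-type level per transcript length, had 10622, 9027 and 10524 CPM in wild-type and 4476, 5559 and 4522 CPM in mutant cells (log2 fold change -1.05, SE 0.14, edgeR adjusted p = 0.00105). Postn, periostin, had 88.1, 57.6 and 94.9 CPM in wild-type and 17.3, 23.4 and 12.01 CPM in mutant cells (log2 fold change -2.18, SE 0.35, edgeR adjusted p = 0.00317). These 3 genes fell in all 6 fits with a library left out. The letters GGAATG, the core that TEAD factors recognise, stood in 11 of 24 windows of this list and in 11 of 24 windows of the contractile genes (45.8%), against 16.6% of all genes in the table. Within the YAP and TAZ list they stood in 3 of 10 windows of members that changed and 8 of 14 of those that did not pass.

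Secreted factors moved in both directions, with more falls than rises in each of the next lists. Of 35 matrix proteases and inhibitors, 10 fell and 4 rose, with the same counts without mutant replicate 3 and 2 rises without any 1 wild-type library. Plau, the urokinase, had 114, 108 and 146 CPM in wild-type and 39.4, 43.1 and 37.8 CPM in mutant cells (log2 fold change -1.61, SE 0.29, edgeR adjusted p = 0.00481), and Adam19 had a log2 fold change of -2.05. Timp2, an inhibitor of matrix metalloproteases, had 1994, 1968 and 2027 CPM in wild-type and 4954, 3475 and 5766 CPM in mutant cells (log2 fold change 1.25, SE 0.24, edgeR adjusted p = 0.00708). The aggrecanase Adamts5 also rose (0.81) but not on either TPM scale. Of 19 genes of the IGF system, 4 fell and 1 rose with and without mutant replicate 3. Igfbp4, a binding protein that withholds IGF from its receptor, had 2569, 3080.1 and 2425 CPM in wild-type and 219, 809 and 431 CPM in mutant cells (log2 fold change -2.47, SE 0.36, edgeR adjusted p = 0.0018), and Igf1 (-1.18) and Igfbp5 (-1.75) fell with it. Of 45 chemokines and cytokines, 9 fell and 4 rose, and 9 fell and 8 rose without mutant replicate 3, with 1 or 2 rises without any 1 wild-type library. Cxcl12, the stromal chemokine that retains leukocytes and progenitors, had 2067, 1914 and 1993 CPM in wild-type and 452, 837 and 411 CPM in mutant cells (log2 fold change -1.81, SE 0.28, edgeR adjusted p = 0.00255). Cx3cl1 (-1.89), Lif (-1.12) and Il11 (-1.35) fell as well. Il1rn, the interleukin 1 receptor antagonist, rose from 0.373, 0.237 and 0.467 CPM in wild-type cells to 2.21, 0.995 and 2.37 CPM in mutant cells (log2 fold change 2.33, SE 0.42, edgeR adjusted p = 0.00509).

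Of 43 growth factors and receptors, 11 fell and 2 rose (11 and 3 without mutant replicate 3, 6 or 7 falls and 0 rises without any 1 wild-type library, and 17 falls without mutant replicate 2). Pdgfra, the receptor that marks fibroblasts of the lung interstitium, had 368, 392 and 427 CPM in wild-type and 86.1, 173 and 113 CPM in mutant cells (log2 fold change -1.67, SE 0.22, edgeR adjusted p = 0.000973). Vegfa had 645, 559.6 and 758 CPM in wild-type and 174, 323 and 229 CPM in mutant cells (log2 fold change -1.44, SE 0.26, edgeR adjusted p = 0.0052), and Egfr (-0.82), Gas6 (-1.22) and Angptl4 (-1.47) fell too. Of 27 Wnt ligands, receptors and antagonists, 7 fell and 3 rose, with 8 and 3 without mutant replicate 3 and 1 rise without any 1 wild-type library. Rspo1, which amplifies Wnt signals, had 21.5, 25.2 and 19.6 CPM in wild-type and 1.19, 4.05 and 6.58 CPM in mutant cells (log2 fold change -2.56, SE 0.42, edgeR adjusted p = 0.00324), and the antagonists Sfrp1 (-1.36) and Frzb (-1.74) and the receptor Ror1 (-3.30) fell with it. Of 21 complement genes, 7 fell and none rose (5 without mutant replicate 3, 3 without wild-type replicate 1, 1 without wild-type replicate 2 or 3 or mutant replicate 1 and 11 without mutant replicate 2). Of 29 NF-kB subunits and targets, 4 fell, among them Sod2 (-1.15) and Lcn2 (-2.50), with 5 falls and 2 rises without mutant replicate 3, 2 falls without wild-type replicate 3 and 7 without mutant replicate 2. Of 29 immediate early genes, 2 fell and 1 rose (3 and 0 without mutant replicate 3, 1 and 0 without any 1 wild-type library or mutant replicate 1), with Fosl2 at a log2 fold change of -0.71.

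The inhibitors of the Ink4 locus on chromosome 4 were higher in mutant cells. Cdkn2a, which encodes p16 and p19ARF, had 53.1, 37.4 and 52.3 CPM in wild-type and 238, 137 and 194 CPM in mutant cells (log2 fold change 2.00, SE 0.41, edgeR adjusted p = 0.0102). Its neighbour Cdkn2b, encoding p15, had 23.2, 18.998 and 21.3 CPM in wild-type and 63.8, 37.2 and 51.4 CPM in mutant cells (log2 fold change 1.26, SE 0.20, edgeR adjusted p = 0.00279). No mutant library overlapped the wild-type libraries for either gene, as for 3061 of all 18167 genes with mutant values above. Cdkn1b, encoding p27, had 47.1, 47.7 and 44.4 CPM in wild-type and 18.4, 30.1 and 18.0 CPM in mutant cells (log2 fold change -1.06, SE 0.17, edgeR adjusted p = 0.00321). Cdkn1a, encoding p21 and a main target of p53, had 409, 371 and 382 CPM in wild-type and 532, 526 and 436 CPM in mutant cells, with the mutant libraries above the wild-type ones and an edgeR adjusted p of 0.0902 (log2 fold change 0.36). It passed without mutant replicate 3 (edgeR adjusted p = 0.0307, range over all alternatives 0.00735 to 0.933). Cdkn2a did not pass without wild-type replicate 2 (edgeR adjusted p = 0.0554, range 0.0001 to 0.064). Cdkn1c (-0.49), Cdkn2c (-1.55) and Cdkn2d (0.00) did not pass.

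Of the 31 tested genes on the list of kinase inhibitors and senescence hallmarks, 7 rose and 3 fell, and 8 rose and 2 fell without mutant replicate 3. Besides Cdkn2a and Cdkn2b, the chromatin proteins Hmga2 (1.37) and Hmga1 (1.18), lamin A/C (Lmna, 0.98) and the cyclins Ccnd1 (1.05) and Ccne1 (0.57) rose. Hmga2 had 56.7, 67.4 and 64.3 CPM in wild-type and 214, 112 and 161 CPM in mutant cells (log2 fold change 1.37, SE 0.25, edgeR adjusted p = 0.00604). Hmga1 had 72.7, 69.2 and 76.5 CPM in wild-type and 280.3, 139 and 76.5 CPM in mutant cells, so the groups touched in mutant replicate 3. The falls included Cdkn1b and the cytokine Il6, which had 184, 220.3 and 239 CPM in wild-type and 24.97, 107 and 37.2 CPM in mutant cells (log2 fold change -1.92, SE 0.52, edgeR adjusted p = 0.0361). The count of rises was 2 without wild-type replicate 2, 3 without wild-type replicate 1 and 4 without wild-type replicate 3 or mutant replicate 1. Without wild-type replicates 1, 2 and 3 in turn the edgeR adjusted p was 0.0619, 0.0856 and 0.0928 for Lmna (range over all alternatives 0.00228 to 0.157) and 0.0783, 0.0889 and 0.117 for Il6 (range 0.00206 to 0.154, 0.0922 without mutant replicate 3). Ccnd1, Ccne1 and Hmga1 also lost their calls in some of these fits, with edgeR adjusted p of up to 0.226, 0.397 and 0.322 over all alternatives. Genes used to follow proliferation and the lamina had values without a call. Mki67 had 20.1, 26.5 and 27.0 CPM in wild-type and 29.6, 23.1 and 26.9 CPM in mutant cells (log2 fold change 0.11, edgeR adjusted p = 0.693), with overlapping groups. Lmnb1 had 9.84, 10.3 and 12.5 CPM in wild-type and 11.4, 8.19 and 0 CPM in mutant cells (-0.70, 0.567), and its 0 in mutant replicate 3 came from the library with the fewest detected genes. Trp53 had 75.4, 71.9 and 78.2 CPM in wild-type and 98.2, 89.4 and 21.5 CPM in mutant cells (log2 fold change -0.10), higher than wild type in mutant replicates 1 and 2 and lower in mutant replicate 3. Rb1 (-0.69), Rbl1 (-0.85), Rbl2 (-1.34), E2f1 (0.52), Lmnb2 (-0.07), Hmgb1 (-0.79), Hmgb2 (-0.27), Glb1 (0.25), Il1a (-3.14), Ccnd2 (0.40), Ccna2 (-0.60), Bmi1 (-0.41), Ezh2 (-0.13) and Cbx7 (-1.02) did not pass.

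None of 48 tested genes of mitosis and G2/M passed (edgeR, 2 higher and 1 lower at an unadjusted p of at most 0.05), and the median was -0.36, or -0.01 without mutant replicate 3, where again none passed. Without mutant replicate 2, 3 of them rose. DESeq2 called 1 higher and 1 lower. Of 50 genes of DNA replication, 8 rose and none fell with and without mutant replicate 3 (median 0.23 and 0.35). The count was 0 without wild-type replicate 3, 1 without wild-type replicate 1 or 2, 2 without mutant replicate 1 and 0 on both TPM scales. Dut, which keeps uracil out of DNA, had 27.8, 30.6 and 27.5 CPM in wild-type and 48.1, 38.2 and 50.6 CPM in mutant cells (log2 fold change 0.67, SE 0.14, edgeR adjusted p = 0.00943) and was the member with the lowest p, but did not pass without wild-type replicate 3 (edgeR adjusted p = 0.0536, range over all alternatives 0.000119 to 0.211). None of 50 genes of double-strand break signalling and repair passed (edgeR, 2 higher and 4 lower at an unadjusted p of at most 0.05, median -0.18), and DESeq2 called 1. H2afx, the histone that ATM phosphorylates at breaks, had 30.7, 28.1 and 25.6 CPM in wild-type and 45.1, 34.4 and 42.3 CPM in mutant cells (log2 fold change 0.53, edgeR adjusted p = 0.0525). Of 43 p53 targets, 4 rose and 6 fell (median 0.21). Without mutant replicate 3, 10 rose and 4 fell, without any 1 wild-type library 1 or 2 rose and 1 fell, and without mutant replicate 1, 2 rose and 3 fell. Bax, a pro-apoptotic target, had 160.2, 163 and 135 CPM in wild-type and 306, 245 and 362 CPM in mutant cells (log2 fold change 0.99, SE 0.19, edgeR adjusted p = 0.00744). Ddit4, a target that restrains mTORC1 and that hypoxia also induces, had 228, 195 and 217 CPM in wild-type and 33.4, 73.3 and 23.2 CPM in mutant cells (log2 fold change -2.29, SE 0.38, edgeR adjusted p = 0.00324). These were the members that passed in all 6 fits with a library left out, Bax upward and Ddit4 downward.

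Lysosomal genes rose in number above the background. Of 51 tested genes of lysosome and autophagy, 15 rose (29.4%, against 5.03% of all genes) and 1 fell (median 0.22, 14 and 1 without mutant replicate 3). The count of rises was 6, 7 and 8 without wild-type replicates 3, 1 and 2 and 10 without mutant replicate 1, and 6 on the log2(TPM + 1) scale. Gpnmb, a lysosomal glycoprotein, had 60.8, 64.2 and 74.7 CPM in wild-type and 345, 232 and 152 CPM in mutant cells (log2 fold change 1.87, SE 0.28, edgeR adjusted p = 0.00184). Rragd, a GTPase that ties the lysosome to mTORC1, had 4.05, 4 and 3.95 CPM in wild-type and 24.1, 14.1 and 16.3 CPM in mutant cells (log2 fold change 2.18, SE 0.42, edgeR adjusted p = 0.00702). The groups did not overlap for these genes, as for 3061 of all 18167 genes with mutant values above. Fnip2 (1.57) rose in all 6 fits as well. Of 40 antioxidant and NRF2 target genes, 8 rose and 3 fell (5 and 2 without mutant replicate 3, and 2 to 4 rises without any 1 wild-type library). Ftl1, ferritin light chain, had 313, 297 and 280.4 CPM in wild-type and 754, 593 and 1338 CPM in mutant cells (log2 fold change 1.59, SE 0.26, edgeR adjusted p = 0.0034).

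Of 38 tested genes of the hypoxia response and glycolysis, 8 fell, none rose and 30 did not pass (median -0.26, or -0.14 with 7 falls without mutant replicate 3, and 4 or 5 falls without any 1 wild-type library). With each of the 6 libraries left out in turn, 4 fell. Hif1a, the oxygen-regulated factor, had 233, 246 and 265 CPM in wild-type and 80.0, 129 and 125 CPM in mutant cells (log2 fold change -1.16, SE 0.18, edgeR adjusted p = 0.00292). Slc2a1, the glucose transporter GLUT1, had 668, 642 and 682 CPM in wild-type and 253, 427 and 344 CPM in mutant cells (log2 fold change -0.96, SE 0.20, edgeR adjusted p = 0.0103), and the oxygen sensor Egln3 fell too (-1.17). Of 35 genes of cholesterol synthesis, 5 fell and 1 rose (4 and 0 without mutant replicate 3, and 1 or 2 falls without any 1 wild-type library). Of 35 genes of endoplasmic reticulum stress, 4 rose and 5 fell (5 and 5 without mutant replicate 3), with 1 or 2 rises and 0 falls without any 1 wild-type library and 2 falls without mutant replicate 1. The chaperone-associated Creld2 had 80.4, 81.5 and 74.6 CPM in wild-type and 125, 131 and 174 CPM in mutant cells (log2 fold change 0.87, SE 0.16, edgeR adjusted p = 0.00591).

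None of 13 mitochondrially encoded genes passed (edgeR and DESeq2, 0 higher and 0 lower at an unadjusted edgeR p of at most 0.05), with a median of -0.33, and 0.05 without mutant replicate 3. None of 47 ribosomal protein genes passed in edgeR (35 higher and 0 lower at an unadjusted p of at most 0.05). The mutant values lay above all wild-type values for 36 of the 47, against 3061 of all 18167 genes tested. All 47 log2 fold changes were above 0. The median was 0.58, or 0.35 without mutant replicate 3, where 1 rose, and 18 rose without mutant replicate 2. DESeq2 called 13, all higher. In Rps24, for example, the levels were 799, 985 and 649 CPM in wild-type cells and 1254, 1025 and 4990.1 CPM in mutant cells, highest in mutant replicate 3. Of 29 heterochromatin genes, 2 rose and 1 fell (3 and 1 without mutant replicate 3, 0 or 1 and 0 without any 1 wild-type library). Of 20 Hox genes, 2 rose (2 without it, 0 without wild-type replicate 2 or 3), and of 37 lung mesenchyme transcription factors, 2 rose and 5 fell (3 and 5 without it, 2 falls without any 1 wild-type library). Prrx1, a factor of mesenchymal identity, had 400.0, 417 and 402 CPM in wild-type and 138, 222 and 149 CPM in mutant cells (log2 fold change -1.26, SE 0.21, edgeR adjusted p = 0.00324), and Gli2, an effector of hedgehog signals, fell in all 6 fits as well (-1.25).

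The mutant cultures had lower RNA of many genes that define fibroblasts, several of which are matrix genes described above. Of 17 fibroblast identity genes, 12 fell (70.6%, against 4.29% of all genes) and 2 rose. S100a4, whose values are given above, was among the rises. Without mutant replicate 3, 9 fell and 1 rose, and 8 fell without any 1 wild-type library or mutant replicate 1. Their summed level was 48799 to 56755 CPM in wild-type and 19644 to 25675 CPM in mutant libraries (exact two-sided permutation test, p = 0.1, the smallest that 3 against 3 allows). Col1a1, Col1a2, Col3a1, Fn1 and Sparc, whose values are given above, made up most of these sums. The lower sum is therefore no result separate from those matrix genes. None of the listed genes was at 0. Thy1, a surface marker of fibroblasts, had 933, 949 and 836 CPM in wild-type and 439, 586 and 412 CPM in mutant cells (log2 fold change -0.92, SE 0.16, edgeR adjusted p = 0.00483). In bulk RNA, fewer cells of a type and less RNA of its genes in each cell cannot be told apart. Of 30 markers of resident lung fibroblasts, 12 fell and 4 rose (10 and 4 without mutant replicate 3, 5 or 6 falls without any 1 wild-type library and 7 without mutant replicate 1). Their summed level was 3630 to 3890 CPM in wild-type and 1816 to 2696 CPM in mutant libraries (p = 0.1, same exact test). Npnt, Mfap4 and Itga8, which are given above, were among the 12 that fell. Among the 4 that rose, Ly6a, a marker of adventitial fibroblasts, had 149.7, 179 and 144 CPM in wild-type and 257, 404 and 414 CPM in mutant cells (log2 fold change 1.19, SE 0.22, edgeR adjusted p = 0.0066). The dehydrogenase Adh1 also rose (2.27). Of 15 pericyte and vascular smooth muscle markers, 6 fell and 1 rose (7 and 1 without mutant replicate 3), summed to 1781 to 2056 CPM in wild-type and 1063 to 1588 CPM in mutant libraries (p = 0.1, exact test). Lmod1 and Postn, given above, were among the 6 pericyte and vascular smooth muscle markers that fell. The rise was Cspg4, the proteoglycan NG2, with 2.73, 1.73 and 1.81 CPM in wild-type and 20.3, 6.45 and 18.0 CPM in mutant cells (log2 fold change 2.83, SE 0.43, edgeR adjusted p = 0.00205).

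The summed levels of several marker lists of other lung cells did not overlap between the groups, but in some of them 1 gene made up much of the sum. Of 13 tested mesothelial markers, 5 rose and 1 fell (4 and 1 without mutant replicate 3, 2 or 3 rises without any 1 wild-type library or mutant replicate 1). Their sum was 896 to 959 CPM in wild-type and 1116 to 1584 CPM in mutant libraries (p = 0.1, exact permutation test), and Muc16 was at 0 in all 6. Krt19, a keratin of mesothelium and epithelium, had 8.15, 9.19 and 6.95 CPM in wild-type and 49.4, 16.8 and 39.6 CPM in mutant cells (log2 fold change 2.12, SE 0.35, edgeR adjusted p = 0.00347). Of 14 tested epithelial markers, Krt19 rose and none fell, with and without mutant replicate 3. The sum of the 22 listed was 20.04 to 25.8 CPM in wild-type and 30.2 to 67.1 CPM in mutant libraries (p = 0.1, exact test), with Sftpd and Scgb3a2 at 0. Krt19 alone was 49.4, 16.8 and 39.6 CPM of mutant epithelial sums of 67.1, 30.2 and 58.6 CPM, so this sum is mostly that gene. Of 25 macrophage markers, 7 fell (3 without mutant replicate 3 or wild-type replicate 2, 4 without wild-type replicate 3 or mutant replicate 1), summed to 134 to 182 CPM in wild-type and 90.3 to 128 CPM in mutant libraries (p = 0.1, exact test). Marco, a scavenger receptor of macrophages, had 0.717, 2.68 and 1.24 CPM in wild-type and 0.0873, 0.0642 and 0 CPM in mutant cells (log2 fold change -4.49, SE 0.60, edgeR adjusted p = 0.000973). Of 12 melanocyte and Schwann cell markers, 3 rose (3 without it, 1 without any 1 wild-type library or mutant replicate 1), summed to 30.5 to 36.3 CPM in wild-type and 50.7 to 86.5 CPM in mutant libraries (p = 0.1, exact test). Tyr, Tyrp1 and Dct were at 0 in all 6, while Mlana had 2.18, 4.24 and 2.5 CPM in wild-type and 36.5, 19.4 and 33.5 CPM in mutant cells. Mlana was thus a large part of the mutant melanocyte and Schwann cell sums of 66.3, 50.7 and 86.5 CPM. The part of these cells in the results above was not tested.

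Of 20 endothelial markers, 4 rose, and 1 did without mutant replicate 3, 0 without wild-type replicate 1 or 3 and 1 without wild-type replicate 2, with sums of 185 to 210 CPM in wild-type and 190 to 212 CPM in mutant libraries (p = 0.8, exact test). Cldn5, the endothelial tight junction protein, had 0.43, 0.305 and 0.439 CPM in wild-type and 0.873, 1.41 and 20.5 CPM in mutant cells, so the library that stood apart held nearly all of it (edgeR adjusted p = 0.0236, and 0.0692 without that library; the call was also lost without any 1 wild-type library, range over all alternatives 0.0063 to 0.399). None of 6 lymphocyte markers passed (edgeR, 0 higher and 3 lower at an unadjusted p of at most 0.05), at 2.77 to 3.73 CPM against 0.614 to 2.22 CPM, with Cd3g, Cd8a and Gzma among those at 0, and DESeq2 called 1 lower. Of 5 adipocyte markers 1 fell, which was Lpl, and 2 fell and 1 rose without mutant replicate 3, with Adipoq, Cfd, Lep and Cidec at 0. The adipocyte sum was 346 to 419.6 CPM in wild-type and 62.8 to 112 CPM in mutant libraries (p = 0.1, exact test). Lpl, whose values are given above, made up most of the wild-type sums, so this sum is no result separate from that gene. Of 11 cartilage and bone markers 2 fell (2 without it), with Ibsp at 0, and the sum was 778 to 1116 CPM in wild-type and 95.7 to 326 CPM in mutant libraries (p = 0.1, exact test). Of 6 skeletal muscle markers 2 rose (1 rose and 1 fell without it, 0 rose without any 1 wild-type library or mutant replicate 1), with Myf5 and Pax7 at 0. None of the 4 tested X-inactivation and Y-linked genes passed (edgeR and DESeq2, 0 higher and 0 lower at an unadjusted edgeR p of at most 0.05).

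**Figure D4:**
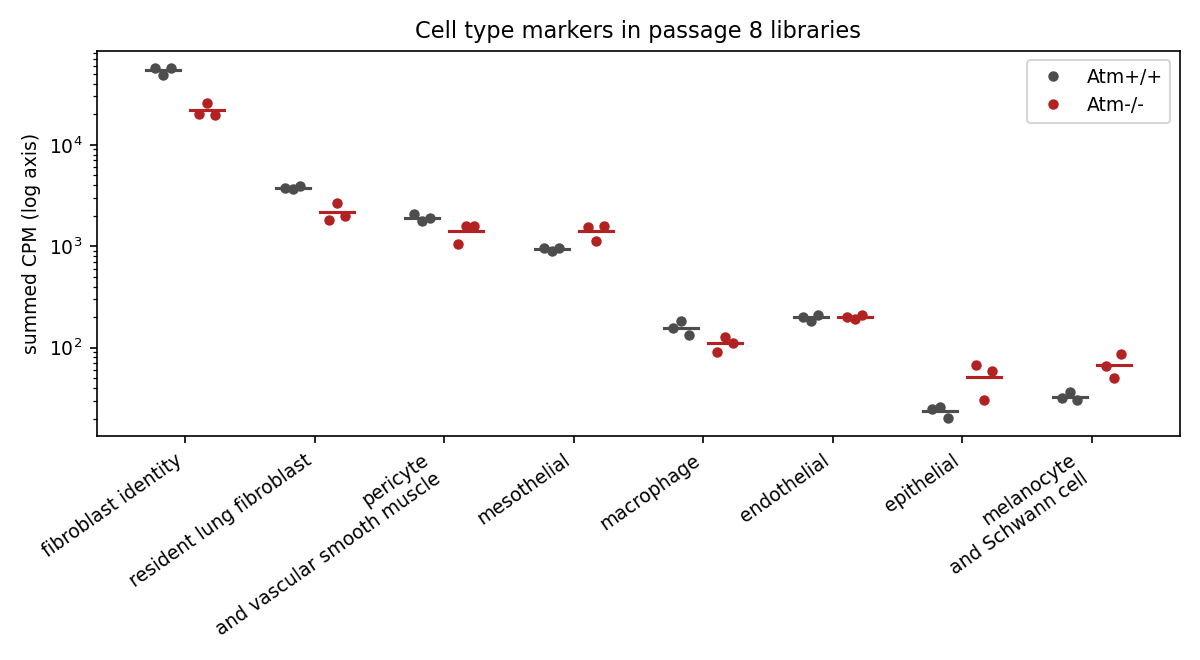
Summed CPM of 8 lists of cell type markers in each passage 8 library, on a log axis, 1 point per library and a bar at the group mean. The fibroblast identity sum is lower in all 3 mutant libraries (19644 to 25675 against 48799 to 56755 CPM), and mesothelial, epithelial and melanocyte sums are higher. Col1a1, Col1a2, Col3a1, Fn1 and Sparc make up most of the fibroblast identity sums. Krt19 makes up most of the mutant epithelial sums.

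The genotype effect on matrix and contractile genes was lower at passage 8 than at passage 2 for many members by the test of the difference itself, and most interferon rises did not pass that test. The genotype effect differed between passages (passage 8 minus passage 2) for 804 genes (4.43%), 446 above (2.46%) and 358 below (1.97%), and 563 of them had also passed at passage 8, 308 upward and 255 downward. The same 3 strains per genotype were sampled at both passages, which that test does not take into account. With the strain as a fixed block in edgeR (the 12 untreated libraries) 0 genes passed, 2917 at an unadjusted p of at most 0.05, and with the strain as a random block in limma voom 603 did, 197 above and 406 below. The differences below are those of the fit without a strain block. Without mutant replicate 3 the number was 1079. It was 126, 182 and 79 without wild-type passage 8 replicate 1, 2 or 3, and 1135 and 2965 without mutant replicate 1 or 2. Wild-type passage 2 replicate 3 had 17226 genes at equal depth, against 20367 to 21337 in the other untreated passage 2 libraries. Without it the number was 432, with 181 above and 251 below. At passage 2 itself, 114 genes were higher (0.628%) and 62 lower (0.341%) in mutant cells, and 77 genes passed in the same direction at both passages and 11 in opposite directions. Of the collagens, 11 of 34 had a lower genotype effect at passage 8 than at passage 2, and none fell at passage 2. Of the contractile genes, 12 of 29 did, and 6 of the 29 rose at passage 2. Of the YAP and TAZ and matricellular genes, 12 of 35 did, and 3 rose at passage 2. Of the interferon-stimulated effectors, 32 of 65 rose at passage 2 (0.628% of all genes did), and 0 had a higher and 2 a lower effect at passage 8. Their median log2 fold change was 1.61 at passage 2 and 1.00 at passage 8. Isg15 was 1 of the 2 (log2 fold change 2.87 at passage 2, difference -1.26, edgeR adjusted p = 0.042). All 8 hypoxia and glycolysis genes with a difference had a lower effect at passage 8.

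Myh11 passed in opposite directions. At passage 2 it had 94.3, 111 and 67.9 CPM in wild-type and 376, 321 and 363 CPM in mutant cells (log2 fold change 1.96, edgeR adjusted p = 0.000887), and at passage 8 the order was reversed, with a difference of -4.02 on the log2 scale (edgeR adjusted p = 0.000184). Thbs1 (1.47 at passage 2, difference -3.07), Lmod1 (1.34, -2.67) and Acta2 (0.77, -1.49) had the same pattern, each with a rise at passage 2 and a fall at passage 8. Col1a1 had 7836, 7945 and 6323 CPM in wild-type and 7648, 7594 and 9996 CPM in mutant cells at passage 2, with overlapping groups and no call (log2 fold change 0.19), and its difference was -2.28 (edgeR adjusted p = 0.00333). Oas2 had 1.09, 0.329 and 1.06 CPM in wild-type and 17.9, 15.9 and 8.73 CPM in mutant cells at passage 2 (log2 fold change 4.13), and its difference between passages was 0.06 (edgeR adjusted p = 0.958). Ifit3 (2.95 at passage 2, difference -0.20), Usp18 (3.31, -0.75) and Irf7 (2.56, -0.48) rose at passage 2 and did not pass the test of the difference. Among the largest rises at passage 8, Prl3a1 (3.14), Mlana (3.61), Apol9a (3.31) and Apol9b (3.47) had also risen at passage 2. Cdkn2a had 15.4, 9.42 and 29.5 CPM in wild-type and 19.5, 10.9 and 11.2 CPM in mutant cells at passage 2, with a log2 fold change of -0.38 and a difference of 2.38 (edgeR adjusted p = 0.041), and Cdkn2b had a difference of 1.19 (edgeR adjusted p = 0.0359).

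**Figure D5:**
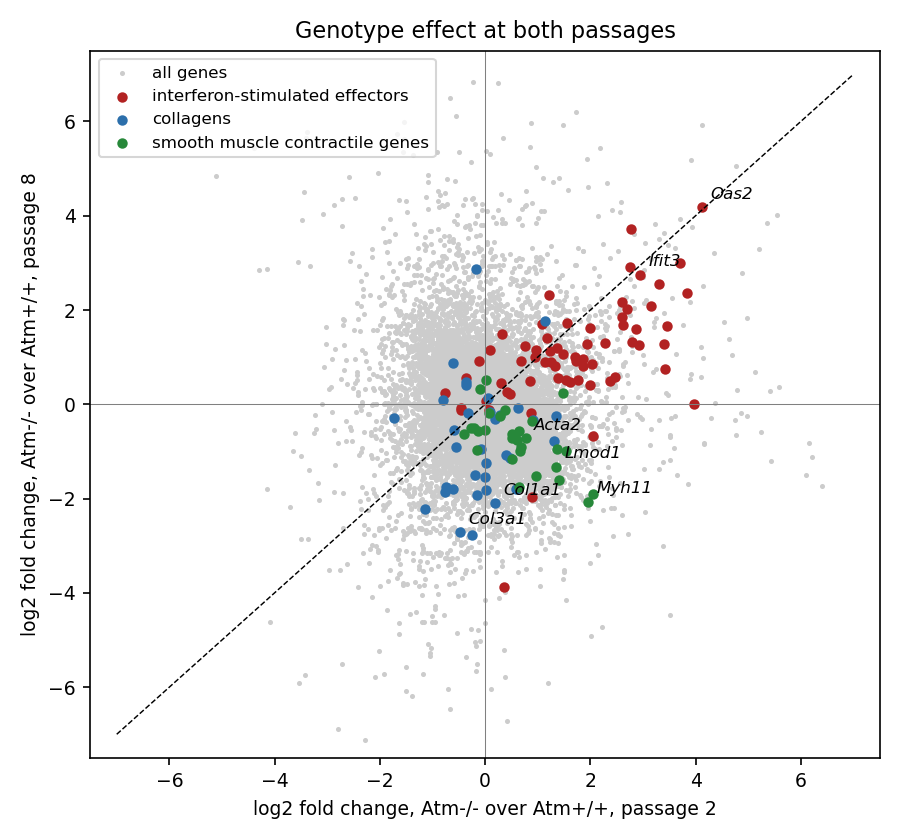
Log2 fold change of mutant over wild-type cells at passage 2 (x axis) and passage 8 (y axis) for 18167 genes. Grey points are all genes, coloured points are members of 3 lists, and 2 genes lie outside the plotted range. Most interferon-stimulated effectors have positive values at both passages, and most collagens and contractile genes lie below the dashed line of equal effects.

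The largest differences above were in Plac9b (7.54), Plac9a (7.42), Akap5 (4.98), Clec3b (4.52), Ccl8 (4.35), Aqp5 (4.30), S100a4 (3.76), S100a13 (3.62), Morc1 (3.59) and Nr2c2ap (3.51). Akap5, S100a13 and Nr2c2ap were highest in mutant replicate 3, with 14.025, 9.44 and 83.1, 148, 112 and 731 and 7.13, 7.9 and 35.7 CPM in the mutant libraries. Among the largest differences below were those in Cdh3 (-4.21), Myh11, Cdc42ep3 (-3.88), F3 (-3.81), Nid2 (-3.75), Gdpd2 (-3.54), Postn (-3.35), Tmeff1 (-3.32) and Nt5e (-3.31). Of these genes, Akap5, Clec3b and Nr2c2ap above and Tmeff1 below did not pass at passage 8 (log2 fold changes 2.62, 1.81, 1.91 and -1.90). Ccl8 and S100a13 above and Cdh3 below did not pass at passage 8 without any 1 wild-type library, with edgeR adjusted p of up to 0.1, 0.172 and 0.201 over all alternatives. S100a13 also lost its call without mutant replicate 3 and Cdh3 without mutant replicate 1. Morc1 did not pass without wild-type replicate 3 (edgeR adjusted p = 0.0532, range over all alternatives 7.74e-06 to 0.0774). F3, tissue factor, had 1652, 1358 and 1820.1 CPM in wild-type and 244, 609.9 and 194 CPM in mutant cells (log2 fold change -2.20, SE 0.48, edgeR adjusted p = 0.0136), and Nt5e, the ectonucleotidase CD73, had 131, 175 and 160.5 CPM in wild-type and 5.09, 36.5 and 26.0 CPM in mutant cells (log2 fold change -2.79, SE 0.64, edgeR adjusted p = 0.017). The groups were apart for each, which the rule for naming these genes required. F3 lost its call at passage 8 without wild-type replicate 3 (edgeR adjusted p = 0.0532, range over all alternatives 5.36e-05 to 0.105). Nt5e lost its call there without wild-type replicate 2 or 3 (edgeR adjusted p = 0.0523 and 0.0532, range 8.41e-05 to 0.123).

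The genes with the highest wild-type level per transcript length (mean TPM) were Mgp (11860.2 TPM in wild-type and 7698 TPM in mutant cells), Gm29216 (9958 and 7213), Tmsb4x (8341 and 4673), Acta2 (7318 and 3586), Sparc (7317 and 2888), Tpt1-ps3 (7272 and 6063), Actb (5910.4 and 4564), Fth1 (5567 and 7626), Bgn (5543 and 4574) and mt-Co1 (5122 and 2578). Acta2 and Sparc were the 2 of these 10 that passed, both lower in mutant cells. Gm29216 and Tpt1-ps3 are pseudogenes whose reads can be shared with their parent genes.

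Changed genes were spread over the genome. The share of tested genes that rose lay between 3.55% on chromosome 14 and 6.89% on chromosome 11, and the share that fell between 3.04% on chromosome 18 and 6.41% on chromosome 4. Over the genes of a chromosome, the median distance from the wild-type mean ran from -0.10 (chromosome 12) to 0.07 (chromosome 17) on the log2 scale in mutant replicate 1 and from -0.07 (chromosome 14) to 0.06 (chromosome 17) in mutant replicate 2, against -0.02 to 0.03 in the wild-type libraries. In mutant replicate 3 it ran from -0.38 (chromosome 14) to -0.04 (chromosome 7). By gene type, 818 of 14156 protein-coding genes rose and 745 fell (894 and 795 without mutant replicate 3). Among 2202 processed pseudogenes, whose reads can come from the parent gene, 54 rose and 3 fell, or 37 and 2 without mutant replicate 3.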

How the data were processed

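RNA of lung fibroblast cultures was sequenced and counted per gene. The deposited table of raw counts per gene (whole numbers) was made with featureCounts and SAMtools 1.3.1 on mm10, per the submitters' processing notes, and the deposited TPM table holds the authors' length- and depth-scaled values. The aligner, annotation release and strand setting are not stated by the labels or notes, so a gene and an antisense or near-identical partner may share reads. Another deposited table, a filtered subset of the TPM rows, was not used. All columns were matched to samples by title (0 columns of no sample).

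Counts of all 15 libraries (totals 13645592 to 39210772) were fitted with edgeR 4.0.16 in R 4.3.3 (filterByExpr by group, TMM, quasi-likelihood test, Benjamini-Hochberg adjustment, threshold 0.05), with 1 coefficient per group, so that the spread is shared by the 5 groups. The contrasts were genotype at passage 8, genotype at passage 2 and their difference. Log2 fold changes are mutant over wild type. The same 18167 genes were simulated from a mean per gene over all 15 libraries and a spread per gene that the libraries shared. Changes were planted only in genes above a minimum mean CPM. Of these, 31% of 2-fold and 73% of 4-fold changes were recovered, with 5 false calls. Apart from library depth, the simulation held no outlying library and no strain differences, so these figures do not cover them. Alternatives used DESeq2 1.42.0, limma 3.58.1 (voom weights, and log2 TPM with a pseudocount of 1 or 0.1), the replicate number as a block, the strain as a fixed or random block (added after the data were seen), other filters and scalings, and each passage 8 library left out. Summed marker levels were compared by an exact two-sided permutation test (scipy 1.17.1). Whether the strains came from separate mice is not given, so p-values measure the spread between these cultures. Per the series design, the same 3 strains per genotype were sampled at both passages. Deviations from group means of libraries of 1 strain had correlations between passages of -0.0179, -0.25 and -0.319 in wild-type and -0.0651, 0.279 and 0.0306 in mutant cells.

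Members and the 47 gene lists were chosen with earlier results of these data known. Named genes were the 15 largest log2 fold changes each way (mean log2 CPM of at least 2, no overlap, same direction without mutant replicate 3, no predicted name), up to 6 members per list by p, every kinase inhibitor and senescence, TGF-beta ligand and receptor, interferon pathway and sex-linked member, Atm, the 10 largest differences between passages each way and the 10 highest TPM values. Isg15, Ifit1, Ifit3b, Bst2, Thy1, Galnt17, Uchl1 and the genes named for a CArG box were chosen after their values were seen. Promoter windows were matched by symbol. Some genes that this rule covers are not reported here.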

Additional observations from a re-analysis of the deposited data

Results flagged for a closer look

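The genotype effect at passage 8 differed from that at passage 2 by the edgeR test of the difference for 804 genes, 84 of them named in the report or its captions. Values are the difference of the log2 fold changes, passage 8 minus passage 2. With the strain as a fixed block 0 genes passed that test in edgeR, and 603 did in limma voom with the strain as a random block. The difference was above 0 for Plac9b (7.54), Plac9a (7.42), Cldn5 (5.23), Akap5 (4.98), Clec3b (4.51), Ccl8 (4.35), Aqp5 (4.30), S100a4 (3.76), S100a13 (3.62), Morc1 (3.59), Nr2c2ap (3.51), Adh1 (3.34), Cspg4 (2.93), Uchl1 (2.72), Il1rn (2.67), Cdkn2a (2.38), Fnip2 (1.86), Ftl1 (1.74), Fth1 (1.58), Timp2 (1.57), Bax (1.23), Cdkn2b (1.19), Creld2 (0.88) and Adamts5 (0.76). Among collagens and collagen enzymes, it was below 0 for Col1a1 (-2.28), Col3a1 (-2.24), Col4a1 (-1.84), Col1a2 (-1.78), Col4a2 (-1.31), P4ha2 (-1.13), Col6a1 (-1.10), Bmp1 (-1.08), Loxl2 (-1.04) and Serpinh1 (-0.90). Among other matrix, matricellular and integrin genes, it was below 0 for F3 (-3.81), Nid2 (-3.75), Postn (-3.35), Nt5e (-3.31), Sparcl1 (-3.25), Thbs1 (-3.07), Npnt (-2.54), Itga11 (-2.54), Itga8 (-2.38), Itga5 (-1.57), Sparc (-0.98), Lamb1 (-0.91) and Fbn1 (-0.83). Among contractile genes, it was below 0 for Myh11 (-4.02), Lmod1 (-2.67), Mylk (-2.41), Nexn (-1.65), Tagln (-1.60), Acta2 (-1.49) and Myl9 (-1.22). Among TGF-beta family genes, it was below 0 for Gdf10 (-2.74), Bmp4 (-1.73), Tgfb3 (-1.48), Bmpr1a (-1.43) and Ltbp2 (-1.15). Among secreted factors, proteases and receptors, it was below 0 for Marco (-3.48), Ror1 (-3.19), Chrdl2 (-2.53), Adam19 (-2.52), Vegfa (-2.30), Il11 (-2.18), Cxcl12 (-2.17), Frzb (-2.15), Plau (-2.06), Igfbp5 (-1.65), Pdgfra (-1.65), Lif (-1.47) and Egfr (-0.96). Among hypoxia and stress genes, it was below 0 for Ddit4 (-2.69), Slc2a1 (-1.65), Hif1a (-1.61) and Egln3 (-1.19). It was also below 0 for Cdh3 (-4.21), Cdc42ep3 (-3.88), Gdpd2 (-3.54), Tmeff1 (-3.32), Galnt17 (-1.96), Prrx1 (-1.68), Jak2 (-1.55) and Isg15 (-1.26). Groups of 3 are too small for the check on single outlying samples, which was not made.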

How the results depend on the processing

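Of 150 named genes that passed, none changed sign in any of 18 alternatives, and 123 passed with each of the 6 passage 8 libraries left out. Of 75 that did not pass, 30 passed under some alternative, and Trp53 did so in the opposite direction, at 0.34 without mutant passage 8 replicate 3 and wild-type passage 2 replicate 3 (13 libraries). The number of genes changed at passage 8 was 3592 with DESeq2, 3883 with limma voom and sample quality weights, 4629 with 13 libraries, 18 with only the 6 passage 8 libraries and 588 to 3390 with 1 library left out. With log2(TPM + 1) it was 1370, with log2(TPM + 0.1) 1223 and without a filter 1246. The number with a difference between passages was 3622 with DESeq2, 2556 with 13 libraries and 79 to 2965 with 1 library left out. Of 47 lists, 21 had at least 25% of members passing in 1 direction, against 33 with DESeq2 or 13 libraries, 0 with the 6 libraries and 5 to 31 with 1 left out. Interferon-stimulated effectors that rose numbered 5 with the 6 libraries, 48 with 13, 16 on both TPM scales and 19 to 37 with 1 left out. Collagens that fell numbered 1 with the 6 libraries and 12 to 17 with 1 left out. Contractile genes that fell numbered 0 with the 6 libraries, 22 with 13 libraries or voom weights and 9 to 18 with 1 left out. The cause of these shifts was not tested. Where 1 library was left out of a group, the remaining libraries and the other groups gave the spread.

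With the replicate number as a block in the fit, 1502 genes changed at passage 8 (749 higher and 753 lower), 577 differed between passages and 147 of the 150 named genes passed. The deviations of same-numbered libraries at passage 8 from their group means had correlations of -0.118, -0.134 and -0.239, so the numbers are not taken as pairs across genotypes. Within a genotype they mark a strain. With the strain as a block in the fit, an alternative chosen after seeing the data, 0 genes differed between passages in edgeR (12 untreated libraries) and 603 in limma voom with the strain as a random block (correlation -0.051), where 1639 genes changed at passage 8 and 19 lists, 29 interferon effectors, 15 collagens and 16 contractile genes were counted. Mutant replicate 3, with 13645592 counts and 15037 genes at equal depth, limits what can be said of low genes.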
